A study of Mus musculus with 12 samples.

Results

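The transcription factors described here are 10 genes taken as marks of cardiac fibroblast identity or of the mesenchyme and heart tissue these cells come from: Tcf21, Msc, Twist1, Twist2, Gbx2, Prrx1, Meox1, Gata4, Gata6 and Tbx20. Their probes were found by gene symbol in the annotation of the array platform, where all 10 were among 19057 genes with a named probe. They were read by 19 probes, of which 17 passed the detection filter and were tested, and each of the 10 genes kept at least 1 tested probe. The study measured total RNA of primary mouse cardiac fibroblasts on Illumina bead arrays, with 4 arrays in each of 3 groups. All cells came from female C57/BL6 mice of 10 to 16 weeks and grew in uncoated wells, in Dulbecco's modified Eagle's medium with 10% fetal calf serum and gentamycin. The control group had no added protein, the CCN2 group 200 nmol/L CCN2 and the GDF15 group 500 nmol/L GDF15. Treatment lasted 48 h by the labels, and the treatment protocol names control cultures without protein in the same sentence. CCN2 (connective tissue growth factor) belongs to the matricellular proteins that cells secrete, and GDF15 is a circulating cytokine of the TGF-beta superfamily. No vehicle is named. Nothing in the labels ties the arrays to separate cultures or mice, so the p-values reflect array-to-array spread that may be technical only.

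Cardiac fibroblasts arise largely from the epicardium, and the basic helix-loop-helix factor TCF21 is needed in the mouse for epicardial cells to take that fate. Adult cardiac fibroblasts, unlike those of many other organs, also keep RNAs of heart-forming factors such as GATA4, GATA6 and TBX20. TWIST and PRRX1 proteins are general factors of mesenchyme.

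The promoters of 4 members are shown because these genes gave the values on which the results turn: Tcf21, Gbx2 and Tbx20 among those lower after CCN2, and Prrx1, which was higher. Each is the RefSeq window of 250 bases before to 50 bases after the gene's start in GRCm38.p6, printed 5′ to 3′ along the gene's strand. The windows are chr10:22820094-22820393 (- strand) for Tcf21, chr1:89931127-89931426 (- strand) for Gbx2, chr1:163313601-163313900 (- strand) for Prrx1 and chr9:24774254-24774553 (- strand) for Tbx20. Capitals mark matches, on either strand, to the E-box CANNTG (the letters that helix-loop-helix dimers bind), the GATA letters AGATAA, the TEAD letters GGAATG and the TATA box TATAAA.
Tcf21: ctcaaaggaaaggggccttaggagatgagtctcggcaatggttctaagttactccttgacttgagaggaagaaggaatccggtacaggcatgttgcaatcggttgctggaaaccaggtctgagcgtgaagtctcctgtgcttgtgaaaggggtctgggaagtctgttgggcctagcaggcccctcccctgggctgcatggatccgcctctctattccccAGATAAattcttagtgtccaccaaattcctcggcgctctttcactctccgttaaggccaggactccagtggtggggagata
Gbx2: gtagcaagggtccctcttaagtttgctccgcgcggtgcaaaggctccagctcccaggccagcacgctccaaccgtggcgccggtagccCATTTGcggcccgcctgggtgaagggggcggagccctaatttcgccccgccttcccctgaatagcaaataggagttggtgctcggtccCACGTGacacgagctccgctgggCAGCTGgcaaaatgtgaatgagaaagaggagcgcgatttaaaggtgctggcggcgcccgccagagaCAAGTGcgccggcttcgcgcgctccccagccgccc
Prrx1: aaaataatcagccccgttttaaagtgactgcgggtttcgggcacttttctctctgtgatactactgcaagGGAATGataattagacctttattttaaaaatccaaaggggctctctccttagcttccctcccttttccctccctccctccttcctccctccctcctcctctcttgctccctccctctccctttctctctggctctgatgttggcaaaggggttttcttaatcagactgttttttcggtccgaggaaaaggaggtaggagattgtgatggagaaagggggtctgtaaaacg
Tbx20: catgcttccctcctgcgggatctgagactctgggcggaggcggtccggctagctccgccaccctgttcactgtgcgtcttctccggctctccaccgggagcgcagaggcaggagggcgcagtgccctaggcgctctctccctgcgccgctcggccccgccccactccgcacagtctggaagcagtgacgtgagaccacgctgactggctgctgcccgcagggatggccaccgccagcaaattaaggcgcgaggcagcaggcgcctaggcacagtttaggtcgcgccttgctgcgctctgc

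Promoter entries were read for 6 of the 10 members, with Twist1 and Twist2 among them. The Tcf21 window held 1 GATA match and 0 E-boxes, against 11.2% and 72.3% of 32851 promoters of the same length that held at least 1 such match. The Gbx2 window held 4 E-boxes, where the median promoter held 1. The Prrx1 window held 1 TEAD match, found in 14.7% of promoters, and the Tbx20 window held none of the 4 motifs. GC content was 53.3% for Tcf21, 64.7% for Gbx2, 47.7% for Prrx1 and 68.3% for Tbx20, with a median of 52.7% over all promoters. These matches describe letters in the windows and are not binding sites.

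The arrays resembled each other within groups more than between them, with a Pearson r across tested probes of 0.987 to 0.996 within a group, 0.978 to 0.983 between control and GDF15, and 0.923 to 0.928 between control and CCN2. Between 18009 and 19691 probes were detected per array, with the lowest range in the CCN2 group, and no arrays were identical. All 10 markers listed for fibroblasts (such as Col1a1, Dcn, Pdgfra and Thy1) were detected on every array. The 4 arrays per group limit the precision of each value, and levels are given on the normalized log2 scale or as the deposited signal, which still includes a background of about the brightness of an undetected probe.

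After CCN2, 8 of the 10 members passed the test, 3 higher and 5 lower. Among all 11018 genes tested, 55.9% passed, 25.7% higher and 30.2% lower, so most genes moved in this comparison. After GDF15, 4 of the 10 members passed, 3 higher and 1 lower, while 22.4% of all genes did, 9.76% higher and 12.7% lower. The members' median log2 difference was -0.22 after CCN2, where that of all genes was -0.02, and 0.04 after GDF15, where that of all genes was -0.02. The groups did not overlap for 8 members after CCN2 and for 4 after GDF15, where 54% and 25.8% of all genes did not. The test was limma's moderated test on all 12 arrays, with Benjamini-Hochberg adjustment over all 20445 tested probes, a two-sided threshold of 0.05, and each gene taken by its brightest tested probe. Both comparisons use the same 4 control arrays. Of the called genes, 46% were higher after CCN2 and 43.5% after GDF15, which became 25.6% and 32.4% when each array was scaled to a common median in place of quantile normalization. That scaling left every called member's direction as it was.

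**Figure D1:**
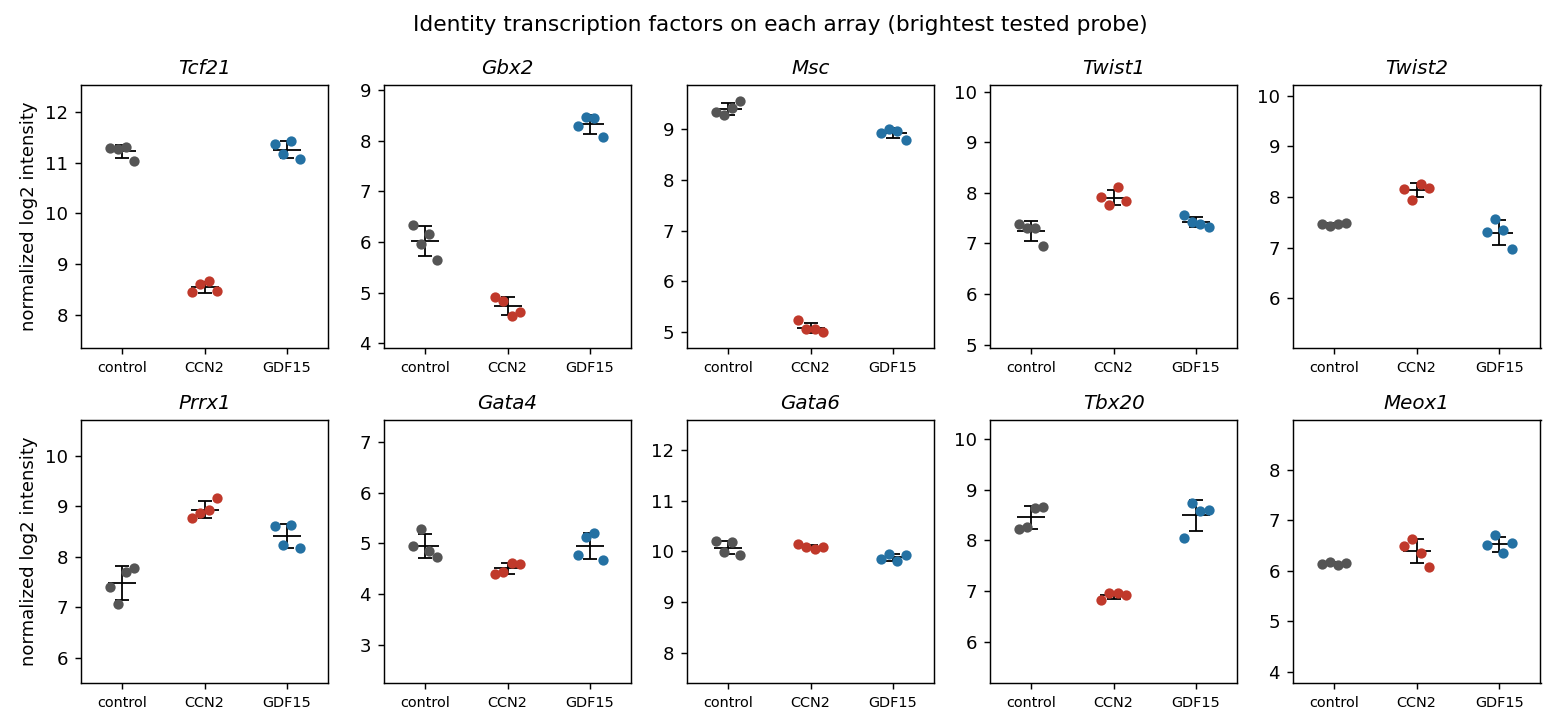
Normalized log2 signal (vertical axis) of the representative probe of each of the 10 members on each array, by group (horizontal axis: control, CCN2, GDF15), with 4 points and the mean ± SD per group; every panel spans the same number of log2 units, with levels that differ between panels. The CCN2 arrays lie below all others for Tcf21, Gbx2, Msc, Tbx20 and, by a small gap, Gata4, and the GDF15 arrays lie above all others for Gbx2.

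The basic helix-loop-helix members fell into a pair that was lower after CCN2, Tcf21 and Msc, and a pair that was higher, Twist1 and Twist2. Tcf21 gave signals of 2451, 2677, 2630 and 2165 on the control arrays, 339, 334, 393 and 334 on the CCN2 arrays, and 2373, 2540, 2941 and 2548 on the GDF15 arrays. Every CCN2 array was far below every other array, and control and GDF15 arrays overlapped. Tcf21 was 6.44-fold lower after CCN2 (95% interval 5.57 to 7.45; log2 difference -2.69, SE 0.0992, limma adjusted p = 4.326e-13), and 102 of 11018 genes had a lower value. After GDF15 its difference was 0.03 (95% interval -0.18 to 0.24 on the log2 scale, limma adjusted p = 0.872).

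Msc encodes musculin, a helix-loop-helix repressor first known from muscle precursors. Its signals were 663, 721, 760 and 824 on the control arrays, 56.8, 54.2, 51.0 and 50.8 on the CCN2 arrays, and 456, 580, 544 and 545 on the GDF15 arrays. The CCN2 signals were the lowest by far, with the probe still detected on all 4 arrays, and every GDF15 signal lay below every control signal. Msc was 20.04-fold lower after CCN2 (95% interval 17.6 to 22.8; limma adjusted p = 3.311e-16), with 13 genes lower than it, and this was the largest difference among the members. The size depends on how the dim CCN2 signals are treated: the log2 difference was -4.32 here, -3.64 in the authors' processed values and -3.39 with an offset of 50. After GDF15 it was 1.40-fold lower (log2 difference -0.48, SE 0.0891, limma adjusted p = 0.000809). The order of the Msc groups was therefore control, GDF15 and CCN2, each apart from its neighbour.

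Twist1 and Twist2, closely related factors that keep mesenchymal cells undifferentiated, changed by less. On the normalized log2 scale Twist1 ranged from 6.95 to 7.39 on the control arrays and from 7.75 to 8.11 on the CCN2 arrays, a rise of 0.67 (SE 0.107, limma adjusted p = 5.06e-05). Twist2 ranged from 7.42 to 7.48 on the control arrays and from 7.94 to 8.26 on the CCN2 arrays, a rise of 0.68 (SE 0.110, limma adjusted p = 6.148e-05). The groups did not overlap for either gene after normalization, whereas in the deposited signals 1 CCN2 array lay within the control range for each gene. Scaling each array to a median in place of quantile normalization brought the rises to 0.38 and 0.39, still past the threshold. After GDF15 the differences were 0.19 for Twist1 (adjusted p = 0.260) and -0.16 for Twist2 (adjusted p = 0.348 in the same limma fit), neither past the threshold.

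The homeodomain members moved in 3 ways. Gbx2, a factor known from hindbrain and pharyngeal arch patterning in the mouse, gave signals of 101, 93.3, 101 and 80.4 on the control arrays, 50.7, 51.0, 42.2 and 45.0 on the CCN2 arrays, and 304, 401, 391 and 339.7 on the GDF15 arrays. The 3 groups were separate, with CCN2 lowest, control between and GDF15 highest. It was detected on 2 of 4 CCN2 arrays and on all control and GDF15 arrays. Gbx2 rose 4.92-fold after GDF15 (95% interval 4.02 to 6.02; log2 difference 2.30, SE 0.138, limma adjusted p = 2.825e-09), and 20 of 11018 genes had a higher value. It was 2.45-fold lower after CCN2 (95% interval 2.00 to 3.00; log2 difference -1.29, limma adjusted p = 4.555e-07). That log2 difference was -0.84 in the authors' processed values and -0.71 with an offset of 50.

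Prrx1, a paired-related homeodomain factor of limb and craniofacial mesenchyme and of fibroblasts, was the member with the largest rise after CCN2. Its brightest probe gave 190.2, 175, 251 and 267 on the control arrays, 425, 401, 469 and 532 on the CCN2 arrays, and 364, 349, 439.6 and 366 on the GDF15 arrays. All treated arrays were above all control arrays. The rise was 2.72-fold after CCN2 (95% interval 2.19 to 3.39; limma adjusted p = 3.117e-07) and 1.90-fold after GDF15 (log2 difference 0.93, SE 0.149, limma adjusted p = 0.000205).

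Prrx1 has 6 probes, of which 5 were tested. After CCN2, where 51.3% of all probes passed, 24.9% higher and 26.4% lower, all 5 passed as higher, the dimmest with overlapping groups. Their log2 differences were 1.44, 1.43, 1.55, 1.31 and 0.54 from the brightest to a dim probe, ILMN_3134079. That dim probe was detected on 0 of 4 control arrays, 3 of 4 CCN2 arrays and 3 of 4 GDF15 arrays. Only treated arrays brought it past the detection filter. Its groups overlapped, and its fitted rise after CCN2 was 1.45-fold (interval 1.14 to 1.855). It therefore adds little to the rise read from the brighter probes. After GDF15, where 20% of all probes passed, 9.34% higher and 10.7% lower, 4 of the 5 were higher and ILMN_3134079 did not pass (log2 difference 0.35, adjusted p = 0.161). The sixth probe was detected on no array and was not tested.

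**Figure D2:**
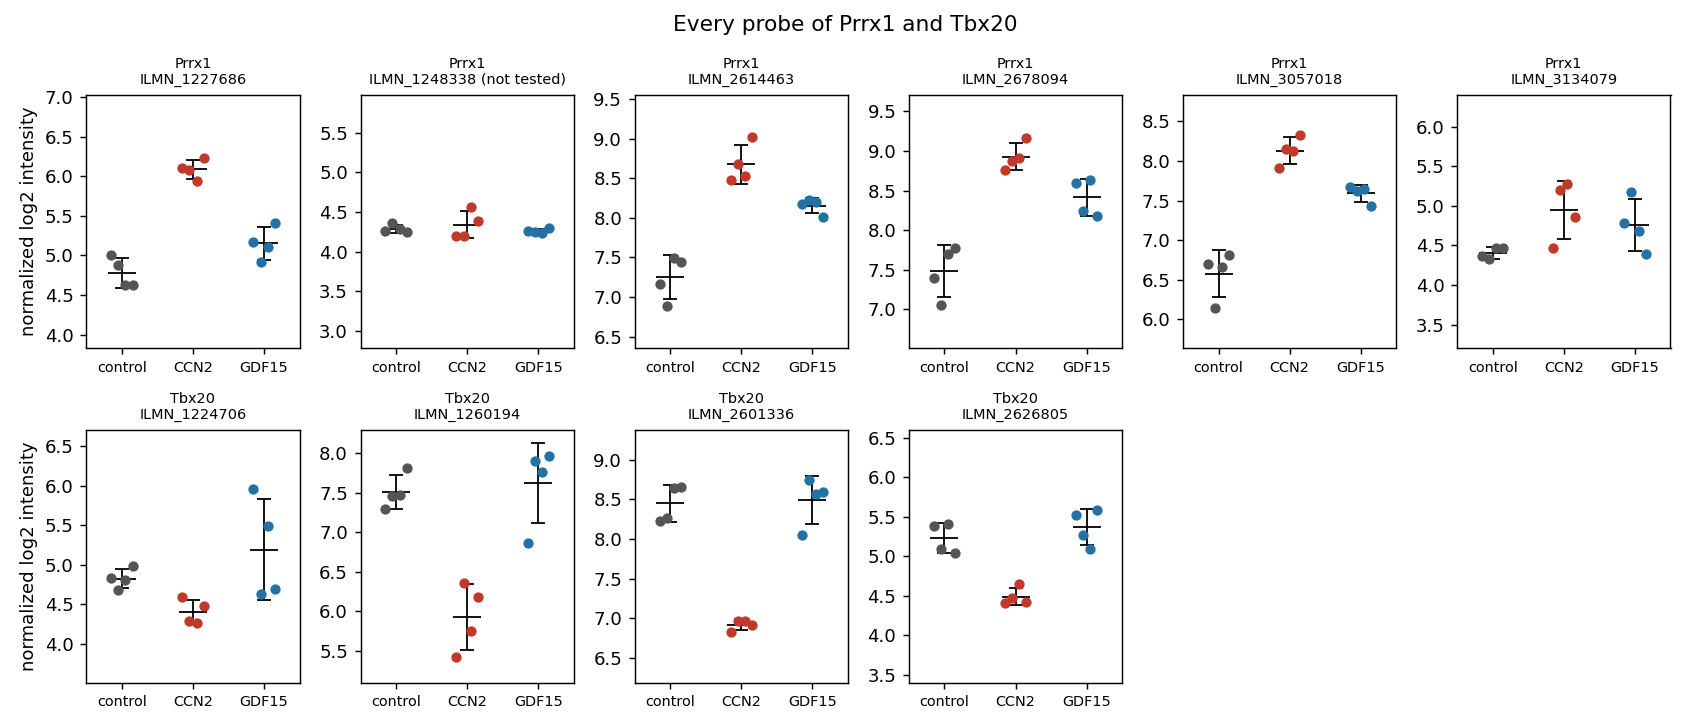
Normalized log2 signal (vertical axis) of every probe of Prrx1 and of Tbx20, with a panel for each probe. Groups (control, CCN2, GDF15) are on the horizontal axis, with 4 array points and the mean ± SD per group. The 3 brightest Prrx1 probes have higher means after both proteins than in control, and the CCN2 means of the 4 Tbx20 probes are below the control means.

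Meox1, a homeodomain factor of somites that has been tied to fibroblast activation, rose by 0.39 after GDF15 (SE 0.110, 1.31-fold, limma adjusted p = 0.0182). On the normalized scale its control arrays lay between 6.11 and 6.18 and its GDF15 arrays between 6.34 and 6.70, without overlap. In the deposited signals GDF15 array 9 (103) lay within the control range (90.0 to 105). This call ended under median scaling (log2 difference 0.30, adjusted p = 0.0892) and without GDF15 array 10 (0.33, adjusted p = 0.0641 in the limma fit). After CCN2 the difference was 0.24 (limma adjusted p = 0.0761) and did not pass, but without CCN2 array 8 it was 0.35 and passed (limma adjusted p = 0.00861).

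Among the zinc-finger factors, Gata4 was dim and Gata6 was well above background on all arrays. The Gata4 signals were 49.5, 65.7, 52.5 and 53.3 on the control arrays, 41.6, 45.2, 43.5 and 44.6 on the CCN2 arrays, and 46.2, 59.9, 60.3 and 51.7 on the GDF15 arrays. Gata4 was detected on 1 of 4 CCN2 arrays and on all others, and the CCN2 arrays lay below all control arrays. Its log2 difference after CCN2 was -0.44 (SE 0.132, limma adjusted p = 0.00969), which became -0.27 in the authors' processed values and -0.20 with an offset of 50, past the threshold in both. After GDF15 it was -0.01 (95% interval -0.29 to 0.27).

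Gata6, a relative of GATA4 with overlapping roles in the mouse heart, did not pass in either comparison with control. Its deposited signals ranged from 1045 to 1257 in control, from 909 to 1092 after CCN2 and from 851 to 1148 after GDF15, and the 3 ranges overlapped. On the normalized log2 scale the CCN2 arrays (10.05 to 10.14) lay above the GDF15 arrays (9.80 to 9.94), and both overlapped the control arrays. The log2 difference was 0.01 after CCN2 (95% interval -0.16 to 0.19) and -0.20 after GDF15 (95% interval -0.37 to -0.02; limma adjusted p = 0.120). The other Gata6 probe was below the detection filter.

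Tbx20, a T-box factor of heart chamber and valve development, was lower after CCN2. Its brightest probe gave 322, 374, 459 and 461 on the control arrays, 124, 125, 135 and 129 on the CCN2 arrays, and 255, 488, 424 and 481 on the GDF15 arrays. All CCN2 arrays lay below all others, and the GDF15 arrays spread around the control arrays with 1 below them. The fall was 2.90-fold (95% interval 2.37 to 3.54; log2 difference -1.53, SE 0.137, limma adjusted p = 5.137e-08). After GDF15 the difference was 0.04 (95% interval -0.25 to 0.33, limma adjusted p = 0.887).

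Of the 4 Tbx20 probes, 3 were lower after CCN2, where 51.3% of all probes passed and 26.4% were lower. Their log2 differences were -1.53, -1.58 and -0.74, the last from a probe detected on 1 of 4 CCN2 arrays. The fourth, ILMN_1224706, was detected on 0 of 4 CCN2 arrays and did not pass (log2 difference -0.42, limma adjusted p = 0.115). Its interval of -0.88 to 0.03 included no change, so no minimum fall is given. After GDF15, where 20% of all probes passed, 0 of the 4 passed in the limma fit, and 0 had an unadjusted p under 0.05.

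**Figure D3:**
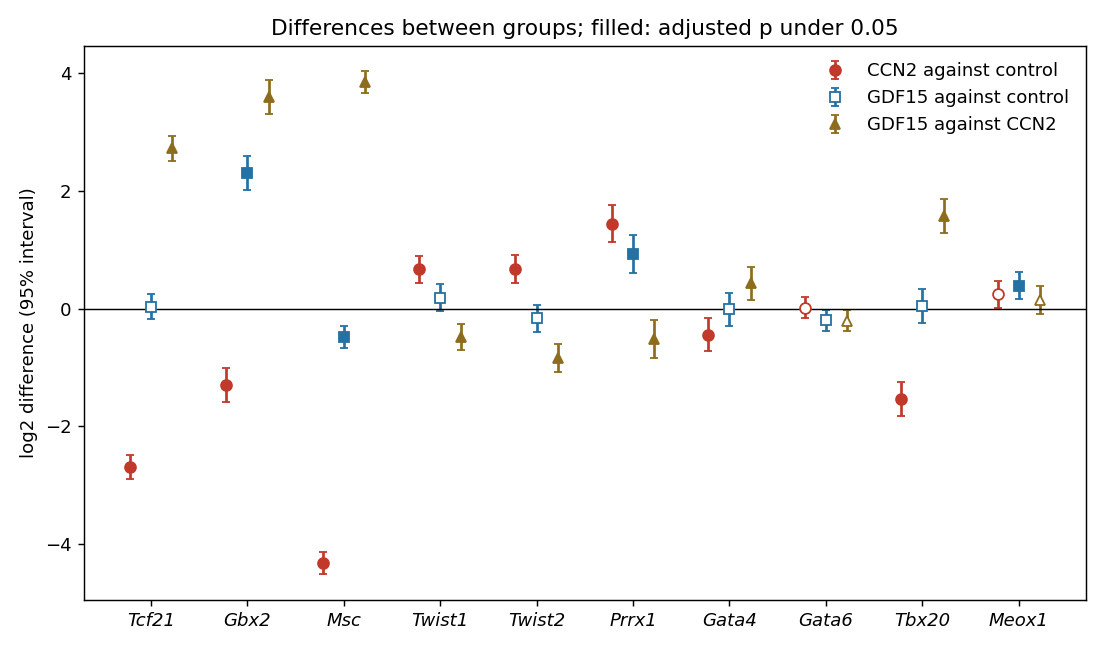
Log2 difference (vertical axis) with its 95% interval for each of the 10 members (horizontal axis) in 3 comparisons. These are CCN2 against control, GDF15 against control and GDF15 against CCN2. Filled points have an adjusted p under 0.05. Msc at -4.32 and Tcf21 at -2.69 lie farthest below 0 after CCN2, and Gbx2 at 2.30 lies farthest above 0 after GDF15.

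Set against each other, at doses that differ, the 2 treated groups differed in 8 of the 10 members, 5 higher and 3 lower in GDF15, where 45.9% of all genes passed, 23.8% higher and 22% lower. The groups did not overlap for 9 members and for 41.8% of all genes. Of the called genes, 52% were higher in GDF15, or 73.1% under median scaling. Gbx2 was 12.1-fold higher in the GDF15 arrays than in the CCN2 arrays (95% interval 9.85 to 14.8; log2 difference 3.59, limma adjusted p = 1.396e-12), with 11 genes higher than it. Msc was 14.4-fold higher (log2 difference 3.84, limma adjusted p = 4.033e-15). Both genes are dim on the CCN2 arrays, where Gbx2 was detected on 2 of 4, and with an offset of 50 the log2 differences were 2.55 for Gbx2 and 2.94 for Msc. Tcf21 was higher by 2.72 on the log2 scale and Tbx20 by 1.57. Gata4 was higher by 0.43 (adjusted p = 0.0141, and 0.0529 without GDF15 array 11 in the limma fit).

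Twist2 was lower in GDF15 by a log2 difference of -0.84 (limma adjusted p = 8.621e-06), Twist1 by -0.48 (adjusted p = 0.00151) and Prrx1 by -0.52 (adjusted p = 0.0102). Under median scaling Twist1 and Prrx1 no longer passed, with adjusted p = 0.0639 and 0.0711 in the limma fit. Gata6 (-0.21, limma adjusted p = 0.0559) and Meox1 (0.15, limma adjusted p = 0.314) did not pass.

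Partners and cofactors of these proteins were read from lists chosen by role. TCF21, MSC and TWIST proteins bind DNA as dimers with the E proteins Tcf3, Tcf4 and Tcf12, which the ID proteins block. Of these 7 genes, 4 were lower and 1 higher after CCN2, with a median log2 difference of -0.46. Id4 was not detected on any CCN2 array and was at least 6.03-fold lower at the offset of 16. With an offset of 50 its fitted log2 difference moved from -2.89 to -1.75, a smaller fold than 6.03. Id1 fell by 1.48 on the log2 scale and Id3 by 0.92. Id2 rose by 0.49, which did not pass under median scaling (0.29, limma adjusted p = 0.0975). After GDF15, 0 of the 7 passed in the limma fit, 2 had an unadjusted p under 0.05, and with the mean of each gene's probes 2 were higher and 1 lower. The values were -0.27 for Id4 and 0.24 for Id2.

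Of 16 listed GATA and T-box cofactors and heart factors, 9 could be tested. After CCN2, Tbx3, a T-box repressor, rose by 1.92 on the log2 scale (1.11 with an offset of 50) and Zfpm2, a cofactor that binds GATA4, by 1.29 (0.64 as the mean of its probes), while Mef2c, a MADS-box activator, fell by 2.30. The other 6 did not pass. After GDF15, Srf rose by 0.43 and Mef2c fell by 0.50, and 7 did not pass. The Mef2c call ended without control array 3 (adjusted p = 0.0745), without GDF15 array 10 (0.0669), 11 (0.0554) or 12 (0.0606), and without a detection filter (0.0786). Nkx2-5, Hand1, Tbx5, Isl1 and Gata5 had probes that did not pass the detection filter.

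Of 8 epicardial genes, 4 could be tested. Aldh1a2, which makes retinoic acid, rose by 2.56 on the log2 scale after CCN2 and by 0.98 after GDF15, and the T-box factor Tbx18 rose by 0.92 and 0.63. The second of these did not pass without control array 1 (adjusted p = 0.0507 in the limma fit) or without a detection filter (0.0580). Upk3b, a mesothelial surface gene, fell by 1.34 after CCN2, where it was detected on 1 of 4 arrays. Its log2 difference was -0.86 in the authors' processed values and -0.71 with an offset of 50.

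Among 21 tested genes of 28 other mesenchymal transcription factors, 6 were higher and 10 lower after CCN2, or 4 and 12 under median scaling. Osr2 was not detected on any CCN2 array and was at least 5.13-fold lower at the offset of 16. Its fitted log2 difference was -2.74, or -1.59 with an offset of 50, a smaller fold than 5.13. Sox9 fell by 1.87 and Nfia by a log2 difference of -1.26, while Meox2, the paralogue of Meox1, rose by 1.22. After GDF15, 3 were higher and 2 lower. Runx1 rose by 1.26 and Nfic by 0.63, and Osr2 fell by 1.46. The remaining higher gene, Creb3l1, rose by 0.32, and its call ended under median scaling (limma adjusted p = 0.175). That call also ended without any 1 control array, without GDF15 array 11 or 12, and without a detection filter. Maf, not detected on any GDF15 array, was at least 1.11-fold lower at the offset of 16. Maf did not pass with an offset of 50 (adjusted p = 0.0547), and it failed the detection filter without any 1 control array. As the mean of its probes the Runx1 rise was 0.77. The list's median was -0.19 after CCN2 and 0.11 after GDF15, or -0.48 and 0.02 under median scaling.

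Among 8 tested genes of 10 linked to epithelial-mesenchymal transition, 5 were lower and 1 higher after CCN2, with a median of -0.49. With the mean of each gene's probes, 3 were lower and 2 higher, with a median of -0.08. Snai2 fell by 1.52 on the log2 scale, Zeb1 by a difference of -0.82, Vim by -0.70 and Fn1 by -0.64, although the mean of the Fn1 probes was -0.05 and did not pass (adjusted p = 0.673). Snai1, also lower by its brightest probe (-0.34), did not pass as the mean of its probes (-0.12, adjusted p = 0.231). After GDF15, Zeb2 rose by 0.47 (0.22 as the mean of its probes) and Zeb1 fell by 0.37.

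Surface and secreted products of fibroblasts had 23 tested genes of 25. Of these, 16 were lower after CCN2 and 10 after GDF15, where 30.2% and 12.7% of all genes were. The medians were -0.80 and -0.16, and the others did not pass. Under median scaling 15 and 8 were lower, as the calls of Col3a1 after CCN2 and of Mfap4 and Col5a1 after GDF15 ended. The Mfap4 call also ended without a detection filter and without some single arrays. As means of probes, 16 were lower and 2 higher after CCN2, and 10 lower and 1 higher after GDF15. After CCN2 the falls were led by Comp at -4.86, Gsn at -3.10, Mfap4 at -2.36 and Dpt at -2.31 on the log2 scale. After GDF15 they were led by Cthrc1 at -2.11, Comp at -2.08, Gsn at -1.57 and Dpt at -1.30. As means of their probes, Gsn was at -2.04 after CCN2 and -0.81 after GDF15, and Cthrc1 at -1.33 after GDF15.

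**Figure D4:**
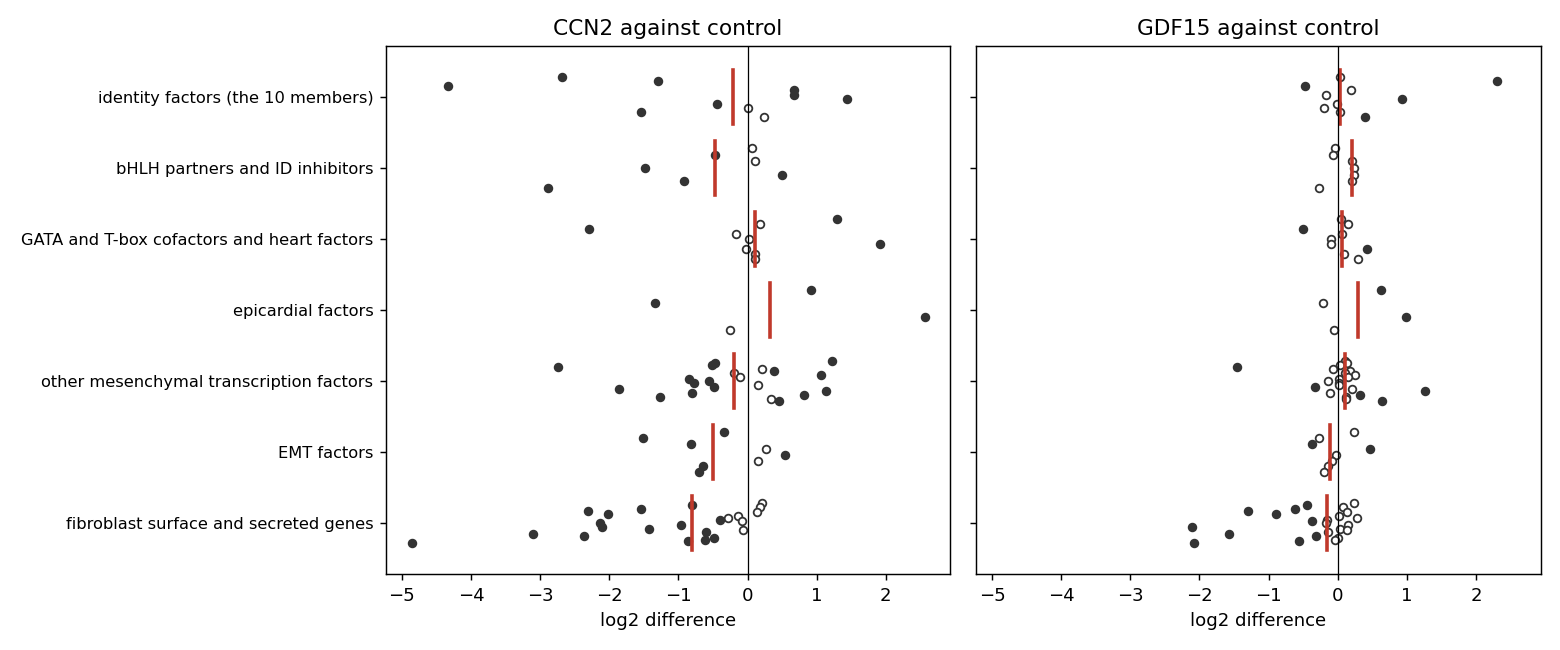
Log2 difference (horizontal axis) of every tested gene of the members and of 6 gene lists (vertical axis) after CCN2 and after GDF15, against control. Filled points have an adjusted p under 0.05 and red bars are medians. The surface and secreted genes have medians of -0.80 after CCN2 and -0.16 after GDF15, while the members have medians of -0.22 and 0.04.

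Markers of other cell types moved too, in comparisons where 30.2% of all genes were lower after CCN2 and 12.7% after GDF15. Of 9 tested macrophage markers, 8 were lower after CCN2, and their summed signal was 32996 to 34561 in control, 9310 to 10851 after CCN2 and 26715 to 30482 after GDF15. All 9 tested endothelial markers were lower after CCN2, with sums of 4817 to 5294, 2276 to 2636 and 4195 to 4659 in the same order of groups. Of 9 pericyte and smooth muscle markers, 8 were lower after CCN2, with sums of 4486 to 4808, 762 to 828 and 3321 to 4573. Sums follow the brightest markers, and the median log2 difference of this list after CCN2 was -0.80, with values from -5.14 to -0.12. After GDF15, 5 of the 9 macrophage markers were lower, as was 1 of the 9 endothelial markers. In the pericyte and smooth muscle list, 5 were lower and 1 higher after GDF15.

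The 10 fibroblast markers summed to 49821 to 57920 in control, 38861 to 43084 after CCN2 and 43644 to 66146 after GDF15, and 5 were lower after CCN2 and 3 after GDF15. Of 10 cardiomyocyte markers, 4 were tested, of which 3 were lower after CCN2, and Myh6, Myh7, Tnni3, Ryr2 and Pln did not pass the detection filter. Of 7 epicardial and mesothelial markers, 5 were tested, with 2 higher and 2 lower after CCN2. The part of other cell types in the members' changes was not tested. In bulk RNA, fewer cells of a type and less RNA per cell cannot be told apart.

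The genes most like each member over the 12 arrays were found by Pearson r among 10707 named genes. The arrays of a group share their treatment and the 3 groups stand apart, so r follows the group means and is a description only. Nearest to Tcf21 were H2-DMa, Prelp and Rasa3 (r of 0.996 to 0.997), nearest to Msc were Dbp, Itga11 and Kcnab1 (all 0.998), and nearest to Gbx2 were Avpr1a (0.990), Serpina3f (0.988) and Fhdc1 (0.985). Tbx20 was nearest to Arhgef26 (0.982), Slc1a3 (0.979) and Cygb (0.975), and Prrx1 to Sppl2a (0.975), Samd4 (0.973) and Cemip2 (0.971). Twist1 was nearest to Mfsd7a (0.970), Rpl7l1 (0.959) and Tgfbr3 (0.954), and Twist2 to Sccpdh (0.980), Acsl5 (0.967) and Noxo1 (0.965). The members with small differences had lower values, with Nudt14, Brox and Fchsd1 nearest to Gata6 (0.866 to 0.912), Calcoco1, L3mbtl3 and Slc26a6 to Gata4 (0.867 to 0.883), and Mreg, Cab39l and Oas1d to Meox1 (0.818 to 0.842).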

How the data were processed

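RNA of primary cardiac fibroblasts was read on 12 arrays. Per the file headers, the deposited table gives each of 45281 probes an intensity and, on the same array, a detection p-value. GenomeStudio 2010.1 is named, without its role, per the submitters' processing notes; scanner and normalization software were not given in the sources used here. The values carry no scaling between arrays. A deposited table of processed intensities served as an alternative. Its sorted values lay within 0.392% of the mean of the arrays' sorted intensities. Quantile normalization without background subtraction gives that distribution, but probes were not compared one by one.

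Intensities were background-corrected, quantile-normalized and brought to log2 with an offset of 16 (neqc, limma 3.58.1, R 4.3.3), which shrinks changes of dim probes. Testing covered the 20445 probes that reached a detection p-value below 0.05 on 4 or more arrays; 24836 did not. A group-means model over all 12 arrays (lmFit and eBayes, 9 residual degrees of freedom) gave 3 comparisons, with Benjamini-Hochberg adjustment over all tested probes. All adjusted p-values come from limma, and intervals cover 95%. With 4 arrays against 4, an exact two-sided permutation test cannot go below p = 0.0286. Groups without overlap always give that value, so it adds nothing to the overlap counts. A probe detected on no array of a group is given as "at least N-fold".

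Symbols came from the platform annotation (34885 probes with 1 symbol, 18 with several, 10378 with none) and were checked against the RefSeq gene table of GRCm38.p6, where 34807 matched and 0 changed. A gene is its brightest tested probe; 4330 genes had more than 1. Named are all members with all their probes, and the 3 genes most like each member. From each list, at most 4 genes with the largest changes past the threshold are named (or 2 where none passed). Some genes whose call ended under another setting are named too. The members and lists were chosen with earlier results of these data known.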

Additional observations from a re-analysis of the deposited data

Results flagged for a closer look

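The Tcf21 probe on control array 4 stood apart from the other control arrays. Its normalized log2 level was 11.04, while the others lay between 11.27 and 11.30, and the gap was 0.88 of the group's whole range, above Dixon's 95% value for 4 samples. The deposited signal there was 2165. Without that array, the log2 difference of Tcf21 after CCN2 was -2.76. Across 51 groups of 4 arrays (17 probes in 3 groups) this was the 1 found, and chance gives about 1 in 20 groups.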

How the results depend on the processing

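No paired analysis was possible because the sample titles number the arrays through all groups and no number is shared between groups. Other settings were the authors' processed values, median scaling, an offset of 50, no or a stricter detection filter, only the groups compared, a trended robust variance, the mean of a gene's probes, and leaving out each array. The number of changed probes ranged from 9659 to 10956 after CCN2, from 3153 to 4341 after GDF15 and from 7686 to 8645 between the treatments. Median scaling moved the median log2 difference of all genes to -0.21 after CCN2, -0.06 after GDF15 and 0.14 between the treatments. It turned the sign of Gata6 (-0.16) and Meox1 (-0.047) after CCN2 and of Tbx20 after GDF15 (-0.011), none of which passed in either setting, and left 1 member lower in GDF15 than in CCN2. An offset of 50 gave 2 members lower after GDF15, the added one being Gata6 (adjusted p = 0.0466 in the limma fit). Leaving out 1 array, the log2 difference of Gata6 after CCN2 ranged from -0.036 to 0.055, and after GDF15 that of Tbx20 from -0.046 to 0.19, of Gata4 from -0.096 to 0.099 and of Tcf21 from -0.032 to 0.093. Dim probes (Gata4, Gbx2 and Msc after CCN2, and the weakest Prrx1 and Tbx20 probes) are limited by background. Apart from changes named here or beside the result, each member kept its direction and its side of the threshold, except that between the treatments Gata6 passed in 6 settings and Meox1 under median scaling (0.35, adjusted p = 0.0241).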
